A study of Mus musculus with 9 samples.

Results

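The genes described here encode nuclear subunits of the oxidative phosphorylation complexes and factors that assemble complexes I and II. They were chosen by symbol from the array's annotation, as every single-gene symbol beginning with Nduf, Sdh, Uqcr, Cox4, Cox5, Cox6, Cox7, Cox8 or Atp5, with the probe set of the highest mean over the 9 arrays standing for each gene. This gave 91 of 17097 genes, 1 of them the pseudogene Ndufs5-ps, and the prefix rule uses no expression value, though it was set with earlier results of these data known. Of the 91, 87 passed the filter that left out the lowest 30% of genes by mean level, so 11969 genes were tested in all. Cox4i2, Cox7a1, Cox7b2 and Cox8b did not pass. The genes tested comprised 32 of complex I, 4 of complex II, 7 of complex III, 15 of the 19 of complex IV, 17 of complex V and 11 assembly factors, with the pseudogene kept apart. Cox7b was not analysed here.

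Oxidative phosphorylation takes electrons from NADH through complex I and from succinate through complex II, passes them through complex III and cytochrome c to complex IV, which reduces oxygen, and uses the resulting proton gradient to make ATP at complex V. Most subunits are encoded in the nucleus and a few in mitochondrial DNA, and dedicated assembly factors build each complex without staying in it. Several complex IV subunits exist as isoforms restricted to muscle, testis or low oxygen. Tumours often make much of their ATP by glycolysis, while many still respire, so the subunits are commonly read beside the glycolytic enzymes.

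The arrays measured RNA of whole bladders of female C57BL/6J mice on an Affymetrix platform, and all values are log2 intensities. In experiment 1 there was 1 array each of a healthy bladder given PBS, a sham-treated (PBS) bladder carrying tumour, and tumour bladders given alpha1-oleate, at doses of 17 mM, 8.5 mM and 1.7 mM. Tumours came from MB49 mouse bladder carcinoma cells placed in the bladder after poly-L-lysine. Treatment was 5 instillations between day 3 and day 11, with collection on day 12. Experiment 2 had 1 array each of a healthy PBS bladder, a sham-treated tumour bladder, and healthy bladders given 17 mM alpha1-oleate and collected at 24 h or 7 d. The labels give no collection time for the healthy PBS bladders. Alpha1-oleate is a complex of a peptide from alpha-lactalbumin with oleate. Only healthy PBS and sham-treated tumour had 2 arrays, and the labels do not say whether an array is 1 animal or a pool. These 4 PBS arrays left 1 residual degree of freedom per gene. Limma moderated that spread toward the spread over all genes (2.23 prior degrees of freedom), so no p-value rests on a gene's own arrays alone. Groups of 1 array were assumed to vary alike.

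An array labelled as healthy tissue shared features with the tumour arrays, and whether its label or its treatment gave them was not tested. The array labelled healthy, 17 mM, 24 h correlated over genes at 0.978 with the 17 mM tumour array, 0.956 with the healthy PBS array of its own experiment and 0.858 with the sham-treated tumour array there. Its level of Mki67, a proliferation marker, was 6.83, against 3.41 in healthy PBS and 9.25 in sham-treated tumour of that experiment. Its urothelial markers had a summed linear intensity of 9812, against 14647 and 1149 in the same 2 arrays. Without this array 29 of the genes, in place of 28, were called in the tumour comparison, beside 57.3% of all genes. The 17 mM count stayed at 2, beside 26.2%. The experiments had been normalized apart, so differences are taken within an experiment, and the fit carries the experiment as a block. Tissue markers differed between arrays. In tumour against healthy PBS, all 9 urothelial markers tested and all 8 smooth muscle markers fell, while 8 of 9 macrophage and neutrophil markers and all 7 cell cycle markers rose. Kidney transcripts stood higher in both healthy PBS arrays (summed linear intensity 1005 to 1324) than in the other 7 arrays (170 to 337). Liver transcripts summed to 1321 to 2629 in the 8.5 mM, 17 mM and 24 h arrays, 954 to 1145 in healthy PBS and 322 to 565 in the remaining arrays. In bulk tissue, fewer cells of a type and less RNA per cell cannot be told apart.

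The first comparison asked how tumour-bearing bladder differed from healthy bladder. Of 87 genes tested, 28 were called at an adjusted p under 0.05 (limma, Benjamini-Hochberg over all genes), which is 32.2% beside 57.2% of all genes. The falls outnumbered the rises, with 23 genes lower (26.4%, beside 28.6% of all genes) and 5 higher (5.75%, beside 28.6%). The differences were small. The median was -0.12 over these genes and -0.005 over all genes, and the median size was 0.265 against 0.53. A difference of at least 2-fold was seen in 2 of the 87 (2.3%) and in 29.4% of all genes. These calls rest on the experiment block: without it none of the 87 was called, 3 had an unadjusted p under 0.05, and 26.5% of all genes were called.

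**Figure D1:**
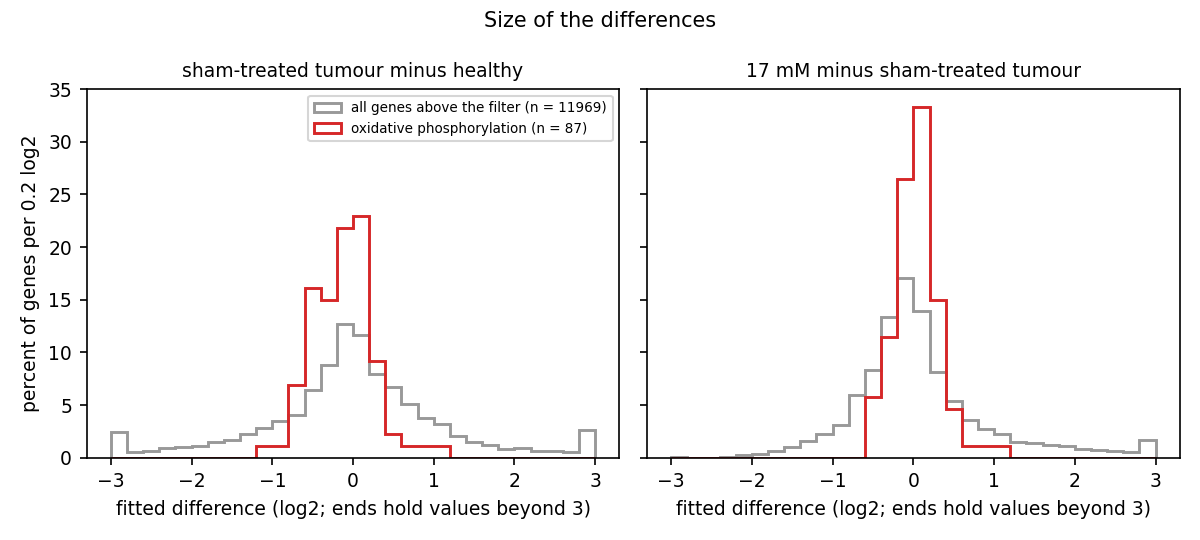
Percent of genes (vertical axis) by fitted log2 difference (horizontal axis, bins of 0.2) for the 87 oxidative phosphorylation genes in red and all 11969 genes in grey, for sham-treated tumour minus healthy on the left and 17 mM minus sham-treated tumour on the right. The red outline is narrower than the grey in both panels, with a median size of 0.265 against 0.53 on the left and 0.148 against 0.372 on the right.

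Complex I, the NADH dehydrogenase and the largest group here, had 11 of 32 lower, none higher and a median of -0.252. Counts for this and the other complexes and for the assembly factors stand beside 28.6% of all genes lower and 28.6% higher. Accessory subunits gave 9 of 26 and the core subunits 2 of 6. The core subunits called were Ndufs3 (-0.545) and Ndufs8 (-0.5), the latter not called without the filter. Ndufa6, an accessory subunit, read 10.03 and 9.09 in healthy PBS of experiments 1 and 2 and 9.25 and 8.33 in the matching tumours. The tumour was lower in each experiment. The fitted difference was -0.77 (SE 0.087, limma adjusted p = 0.00811). Ndufa11 read 9.94 and 9.44 in healthy PBS and 9.31 and 8.63 in tumour, and Ndufb2 read 9.89 and 9.70 against 9.33 and 8.89. In both genes each tumour array lay below each healthy array, and the fitted differences were -0.72 (SE 0.101, limma adjusted p = 0.0123) and -0.685 (SE 0.112, limma adjusted p = 0.017). The mean of the probe sets, used in place of the brightest, ended the call of Ndufa11. The highest difference in complex I was 0.27 for Ndufb5, which was not called.

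Complex II, succinate dehydrogenase, had no gene called among its 4 subunits by limma, 1 with an unadjusted p under 0.05, and its median was -0.225. Sdha, the flavoprotein, read 10.19 and 9.69 in healthy PBS and 9.93 and 9.16 in tumour, a difference of -0.395 (limma adjusted p = 0.0616). Sdhb, the iron-sulfur subunit, differed by -0.31, and the membrane anchors Sdhc and Sdhd by -0.14 and 0.23. In complex III, which passes electrons to cytochrome c, 3 of 7 fell and none rose, with a median of -0.165. Uqcr10, a small supernumerary subunit, read 10.56 and 10.03 in healthy PBS and 9.79 and 9.16 in tumour. Each tumour array lay below each healthy array, and the fitted difference was -0.82 (SE 0.092, limma adjusted p = 0.00786). Uqcrb (-0.465) and Uqcr11 (-0.445) also fell, while Uqcrc1, Uqcrq and Uqcrfs1 differed by 0.08, 0.15 and 0.19 and were not called.

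Complex IV, cytochrome c oxidase, moved both ways, with 4 lower and 1 higher of 15 and a median of 0.05. Ndufa4, first described in complex I and now placed in complex IV, had the largest fall of the 87. It read 10.62 and 10.40 in healthy PBS, 9.69 and 9.22 in sham-treated tumour, and 10.23 in both the 24 h and 7 d arrays. Each tumour array lay below each healthy array, and the fitted difference was -1.055 (SE 0.112, limma adjusted p = 0.0071). Cox6c read 11.72 and 10.93 in healthy PBS and 11.09 and 10.09 in tumour. Its values overlap across experiments but the tumour was lower in each, with a fitted difference of -0.735 (SE 0.105, limma adjusted p = 0.0129). Cox7a2l, which takes part in joining complexes III and IV, fell by 0.595, and Cox4i1, the common form of a subunit with a low-oxygen isoform, fell by 0.375, a call lost without the filter.

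The complex IV isoforms did not move as a block. Ndufa4l2, a hypoxia-inducible relative of Ndufa4, read 5.70 and 5.21 in healthy PBS and 6.13 and 6.04 in tumour. Each tumour array lay above each healthy array, and the fitted rise was 0.63 (SE 0.141, limma adjusted p = 0.0345). The muscle isoform Cox6a2 differed by 0.205 and its common counterpart Cox6a1 by 0.05, neither called. Cox7a2, Cox8a and Cox6b1 differed by 0.185, 0.1 and -0.025. Cox7a1, a muscle isoform below the filter, read 4.10 and 3.33 in healthy PBS and 3.44 and 2.90 in tumour. Beside it, 5 of 8 striated muscle markers fell, with summed linear levels of 1878 to 2785 in healthy PBS and 571 to 999 in tumour, and their part in the result was not tested.

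AA467197, named after its values were seen, is the mouse counterpart of a human gene encoding a relative of Ndufa4, and lies outside the prefix rule. It read 3.22 and 3.03 in healthy PBS, 10.22 and 9.26 in sham-treated tumour, and 6.98 and 3.44 in the 24 h and 7 d arrays. Both healthy PBS values lie below the filter's 4.16, so the gene passed the filter through the other arrays and the size of its difference has no firm meaning. Macrophage and neutrophil markers, 8 of 9 of which rose, summed to 786 to 1222 in healthy PBS and 4043 to 7329 in tumour, and their part in these levels was not tested.

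Complex V, the ATP synthase, had 2 lower and 1 higher of 17, a median of -0.07 and a median size of 0.135, smaller than in the other complexes. Atp5e, the epsilon subunit of the catalytic head, fell by 0.51, and Atp5l, subunit g of the membrane part, fell by 0.45. Atp5pb, subunit b of the peripheral stalk, read 10.36 and 9.48 in healthy PBS and 10.86 and 10.05 in tumour. It was higher in tumour in each experiment, by 0.535 in the fit (SE 0.089, limma adjusted p = 0.0179). The genes of the c-ring, Atp5g1, Atp5g2 and Atp5g3, which encode the same mature protein, differed by 0.295, -0.06 and -0.045 and were not called.

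**Figure D2:**
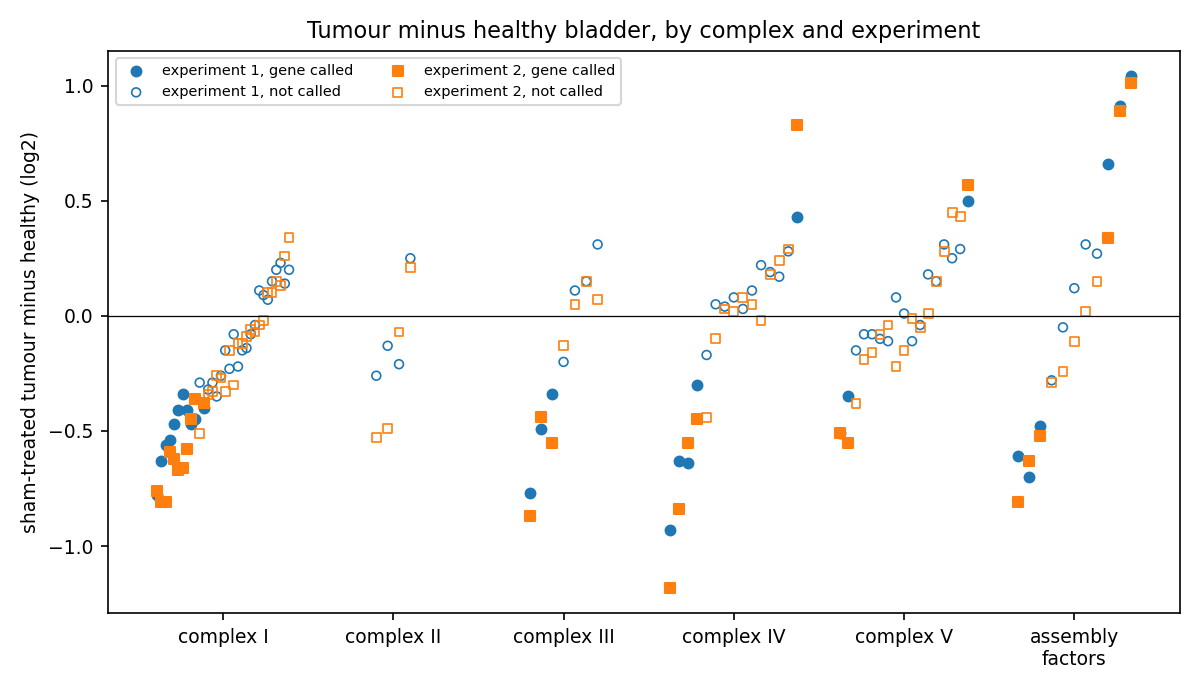
Log2 difference of sham-treated tumour minus healthy PBS (vertical axis) for each gene above the filter except the pseudogene, by complex (horizontal axis), with circles for experiment 1, squares for experiment 2 and filled symbols for genes called. Both experiments give like values gene by gene, from -0.93 and -1.18 for Ndufa4 to 1.04 and 1.01 for Ndufaf4.

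The assembly factors had a larger median size of difference (0.5) than any complex, with 3 higher and 3 lower of 11. Ndufaf4, a complex I assembly factor, read 7.24 and 6.37 in healthy PBS and 8.28 and 7.38 in tumour. Each tumour array lay above each healthy array, and the fitted rise was 1.025 (SE 0.088, limma adjusted p = 0.0049). Its other probe set differed by -0.15, with values of 0.15 and -0.45 in experiments 1 and 2, so the rise was seen with 1 probe set and not the other. Ndufaf2, which binds a late complex I intermediate, read 6.60 and 5.73 in healthy PBS and 7.51 and 6.62 in tumour. Each tumour array lay above each healthy array, and the rise was 0.9 (SE 0.087, limma adjusted p = 0.00608). Ndufaf6 rose by 0.5, a call lost without the filter and with a variance trend, while Ndufaf3 (-0.665) and Ndufaf8 (-0.5) fell. Of the complex II factors, Sdhaf4, which helps flavin-bearing Sdha join its partner, fell by 0.71 and Sdhaf1, Sdhaf2 and Sdhaf3 were not called.

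The promoters of the largest falls and rises are shown because these genes moved in opposite directions in the same tissue. Each is the 250 bases before the first listed start, from RefSeq (GRCm38.p6), 5′ to 3′, with matches to the motifs searched in capitals.
Ndufa4, chr6:11907451-11907700, minus strand: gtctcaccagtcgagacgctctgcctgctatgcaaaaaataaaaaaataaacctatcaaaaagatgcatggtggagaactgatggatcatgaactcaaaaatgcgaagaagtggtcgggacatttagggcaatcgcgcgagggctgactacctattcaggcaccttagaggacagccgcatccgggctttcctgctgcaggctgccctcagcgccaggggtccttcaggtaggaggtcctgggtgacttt
Uqcr10, chr11:4704345-4704594, minus strand: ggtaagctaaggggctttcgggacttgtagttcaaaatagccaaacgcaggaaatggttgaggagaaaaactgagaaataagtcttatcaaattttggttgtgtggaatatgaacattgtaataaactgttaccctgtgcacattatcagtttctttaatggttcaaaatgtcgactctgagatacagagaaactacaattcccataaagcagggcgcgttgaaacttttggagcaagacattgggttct
Ndufaf4, chr4:24897833-24898082, plus strand: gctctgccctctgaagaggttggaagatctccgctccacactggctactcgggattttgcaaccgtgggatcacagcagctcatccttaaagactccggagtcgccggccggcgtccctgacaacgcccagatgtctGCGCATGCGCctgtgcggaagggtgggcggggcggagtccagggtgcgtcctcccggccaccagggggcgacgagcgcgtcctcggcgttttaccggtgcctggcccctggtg
Ndufaf2, chr13:108158626-108158875, minus strand: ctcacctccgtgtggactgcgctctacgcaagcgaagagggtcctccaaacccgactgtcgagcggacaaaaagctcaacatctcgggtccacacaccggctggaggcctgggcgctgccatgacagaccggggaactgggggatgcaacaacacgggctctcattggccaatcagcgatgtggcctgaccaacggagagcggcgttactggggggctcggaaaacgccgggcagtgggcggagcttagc
The capitals in Ndufaf4 are a match to the NRF1 motif starting 113 bases before the start, and the other 3 hold no match to any motif searched.

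Motifs of factors known to act at such promoters were searched on both strands in the 74 of 91 genes with an entry. Shares depended on the window, and both are given because the longer window was added after the counts in the shorter one had been seen. In the 250 bases before the start, the NRF1 motif, GCGCA followed by its reverse complement, was in 5 of 74 promoters (6.76%, beside 1.56% of 9601 genes above the filter and 0.781% of all 27025). With 50 bases after the start added, 300 in all, it was in 7 (9.46%, beside 1.95% and 0.977%). The ETS motif CCGGAAG was in 13 (17.6%, beside 13.1% and 7.05%) and, in the longer window, in 19 (25.7%, beside 17.3% and 9.12%). The YY1 motif AAGATGGC changed most, from 0 of 74 (beside 1.94% and 1.59%) to 10 (13.5%, beside 4.49% and 2.88%). The ERR motif CAAGGTCA was in 2 and then 3 promoters (2.7% and 4.05%, beside 0.989% and 1.09% of genes above the filter). The E-box CACGTG was in 6 in either window (8.11%, beside 8.34% and 9.93% of genes above the filter). A match describes letters in the window and shows no binding.

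Of the genes that fell and have an entry, 1 of 19 held the NRF1 motif and 6 of 19 the ETS motif in the longer window, beside 1 of 3 and 0 of 3 of those that rose. Of genes not called, 5 of 49 and 13 of 49 did. The NRF1 match among the falls was in Ndufa11 and that among the rises in Ndufaf4.

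Related genes outside the prefix rule were counted beside the 28.6% of all genes called in each direction. Of 11 glycolytic genes tested, 10 rose and 1 fell, with a median of 1.065. Hk2, a hexokinase, rose by 3.195 and Pgk1 by 2.4, and the muscle phosphofructokinase Pfkm fell by 0.62. The tricarboxylic acid cycle and pyruvate dehydrogenase list had 2 higher and 3 lower of 13 and a median of -0.05, with Pdha1, a subunit of pyruvate dehydrogenase, at -1.45. Of 72 mitochondrial ribosome genes, 19 rose and 3 fell (median 0.185), and of 20 other assembly factors 6 rose and 4 fell (median -0.002). The share of rises in both lists was near that of all genes, while the 3 falls of 72 were a smaller share than the 28.6% of all genes. Of these factors, Uqcc2 (0.79), which acts on complex III, was the highest of those that rose, and Sco1 (-1.01) and Surf1 (-0.95), which act on complex IV, were the lowest of those that fell. Of 9 regulators, Gabpb1 (0.705) and Gabpa (0.58), which form an ETS factor, rose and Tfb2m (-0.585), a mitochondrial transcription factor, fell. Cytochrome c, Cycs, rose by 0.64 (limma adjusted p = 0.0204), and Cyc1 differed by -0.07.

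The tumour calls were read against another control, chosen after the kidney transcripts were seen. With the healthy 7 d array in place of healthy PBS, 10 of the 87 were called, beside 44.3% of all genes, with 3 higher (beside 22.9%) and 7 lower (beside 21.4%). The 23 falls and 5 rises had been called with the same sham-treated tumour arrays, so this reading is no independent test of them. All 23 genes that fell were lower in the experiment 2 tumour than in the 7 d array, with differences from -1.01 to -0.26. Of these, 7 were called in this fit. The 5 genes that rose were higher than in the 7 d array, by 0.14 to 0.82, and 3 of them were called. Ndufa4l2 was not among the 3, with a fitted difference of 0.04 (limma adjusted p = 0.878). The 7 d array had been given 17 mM alpha1-oleate and is no untreated control.

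The next comparisons asked how alpha1-oleate treatment of tumour-bearing bladder changed these genes. At 17 mM against sham-treated tumour, 2 of 87 were called, beside 26.3% of all genes, and both were higher, beside 15.7%. The median was 0.03 beside -0.045 over all genes. Without the block none was called, 3 had an unadjusted p under 0.05, and 10.2% of all genes were called. Cox6b2, the testis isoform of a complex IV subunit, read 5.33 and 4.98 in the sham-treated tumours of experiments 1 and 2, 5.84 at 1.7 mM, 6.67 at 8.5 mM and 6.37 at 17 mM, against 5.50 and 5.42 in healthy PBS. All 3 treated tumours lay above both PBS arrays of experiment 1. The fitted difference of Cox6b2 from healthy PBS was 0.628 in the array labelled healthy, 24 h and -0.262 in the 7 d array, neither called. The fitted rise was 1.108 at 17 mM (SE 0.152, limma adjusted p = 0.0283) and 1.408 at 8.5 mM (SE 0.152, limma adjusted p = 0.03). Its common counterpart Cox6b1 differed by -0.10 at 17 mM and was not called.

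Ndufa4 read 9.91, 10.47 and 10.55 at 1.7 mM, 8.5 mM and 17 mM, against 9.69 in the sham-treated tumour and 10.62 in the healthy bladder of that experiment. The values at 8.5 mM and 17 mM lay above the sham-treated tumour of experiment 1, the only sham-treated tumour array normalized with them. The rise at 17 mM was 0.923 (SE 0.148, limma adjusted p = 0.0349) and the difference at 8.5 mM was 0.84 (limma adjusted p = 0.0524). Cox6c read 11.21, 11.54 and 11.68 at the 3 doses against 11.09 in sham-treated tumour, a difference of 0.64 at 17 mM (limma adjusted p = 0.0561). Ndufaf2 read 7.28, 7.08 and 6.95 against 7.51, a difference of -0.555 at 17 mM (limma adjusted p = 0.053). Beside these values, all 9 urothelial and all 8 smooth muscle markers rose at 17 mM and 6 of 7 cell cycle markers fell. Smooth muscle markers summed to 32005 at 17 mM and 10093 in the sham-treated tumour of that experiment, striated muscle markers to 3886 and 999, and liver markers to 2629 and 328. Their part in the results was not tested.

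**Figure D3:**
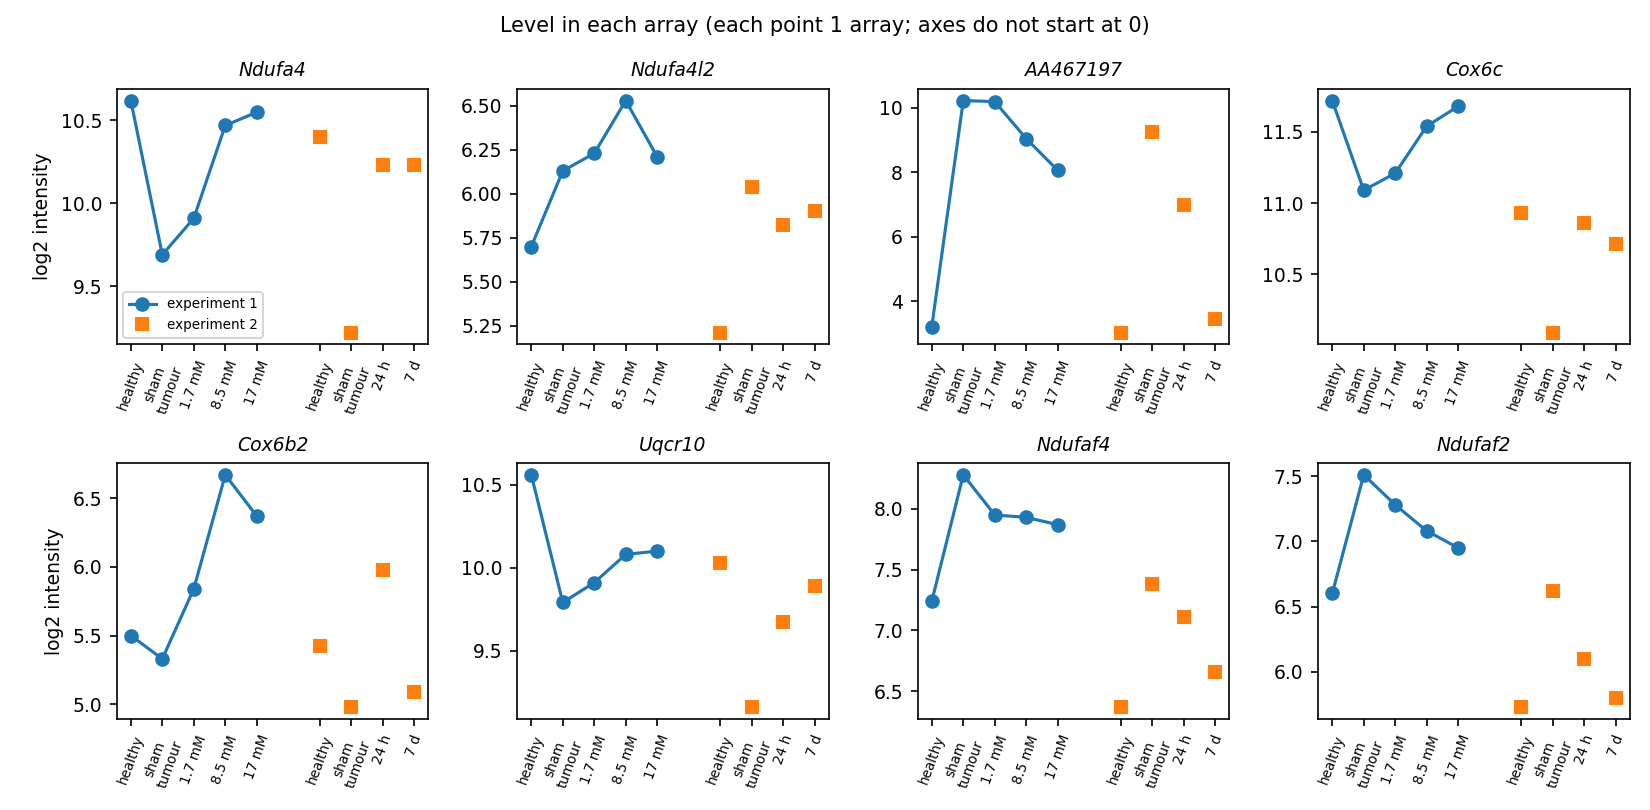
Log2 intensity (vertical axes, not starting at 0) of 8 genes in each of the 9 arrays, with circles joined for experiment 1 and squares for experiment 2. Ndufa4 is lowest in both sham-treated tumours (9.69 and 9.22), AA467197 highest in the sham-treated tumour of each experiment (10.22 and 9.26), and Cox6b2 highest at 8.5 mM (6.67).

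At 8.5 mM, 1 of 87 was called, Cox6b2, beside 15.6% of all genes, and without the block none was. At 1.7 mM limma called none of the 87 and 0% of all genes, with 1 and 1595 at an unadjusted p under 0.05. For 17 mM against 1.7 mM, limma called none of the 87, beside 5.95% of all genes, with 3 at an unadjusted p under 0.05, and the smallest adjusted p was 0.102 for Ndufa4. For 17 mM tumour against healthy PBS, limma called none, beside 2.97% of all genes, with 10 at an unadjusted p under 0.05. By complex, medians at 17 mM against sham-treated tumour were 0.055 for complex I, 0.181 for complex II, 0.092 for complex III, -0.005 for complex IV, -0.017 for complex V and 0.007 for assembly factors. Among complex I genes the values ran from -0.375 for Ndufs4 to 0.465 for Ndufa11, and among complex II genes from -0.42 for Sdhd to 0.33 for Sdhb. Glycolytic genes had a median of -0.578. Of the 11 tested, 10 lay below 0 and 4 were called lower, beside 10.6% of all genes.

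Treatment and tumour differences share the sham-treated tumour array within experiment 1, so they were set side by side across experiments. The tumour difference of experiment 2 and the 17 mM difference of experiment 1 rest on 4 arrays with none in common. Over the 87 genes they correlated at -0.81 (Pearson) and -0.89 (Spearman), and at -0.793 (Pearson) without Ndufa4, beside -0.868 (Pearson) over all genes. The points are genes of the same 4 arrays and no independent replicates. With the tumour difference of experiment 2, the Pearson correlation was -0.707 at 8.5 mM and -0.495 at 1.7 mM.

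The 20 genes at least 0.5 lower in the experiment 2 tumour were all lower in the experiment 1 tumour, with a median of -0.525. At 17 mM all 20 were above the sham-treated tumour of experiment 1, with a median of 0.27, and all 20 were below its healthy bladder, with a median of -0.225. Of the 4 genes at least 0.5 higher, 3 were below sham at 17 mM, and Ndufa4l2 was 0.08 above. Cox6b2 stood outside this order, with -0.44 in the experiment 2 tumour and 1.04 at 17 mM, which left it 0.87 above the healthy bladder of experiment 1. The same counts were not taken over all genes. The Pearson correlation over all genes, -0.868, was stronger than the -0.81 over the 87, so the order is not particular to these genes.

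**Figure D4:**
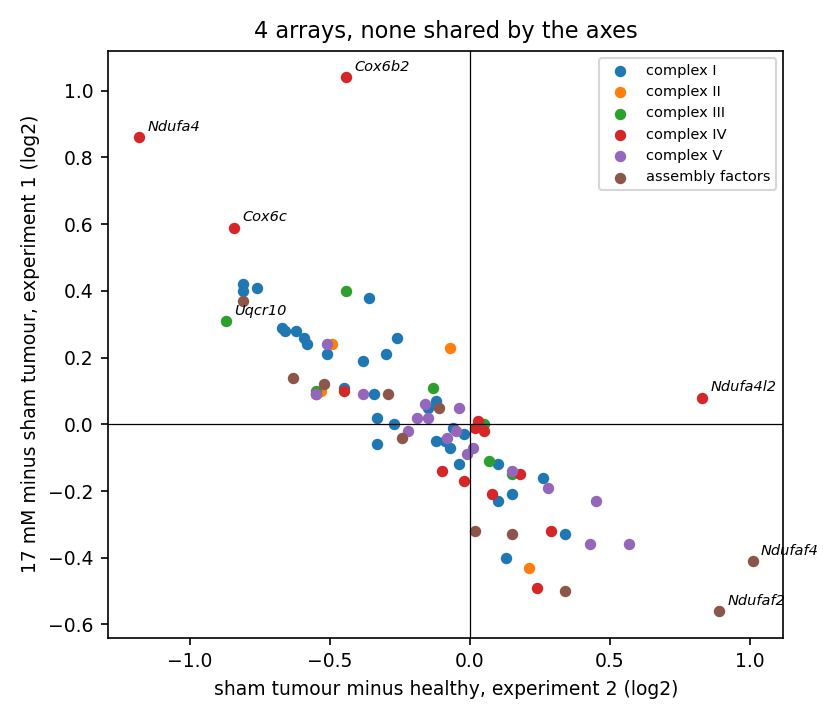
Log2 difference of 17 mM minus sham-treated tumour in experiment 1 (vertical axis) against sham-treated tumour minus healthy in experiment 2 (horizontal axis) for the genes above the filter, coloured by complex (the pseudogene is not drawn). Genes lower in tumour tend to be higher at 17 mM (Pearson -0.81 over 87 genes), with Cox6b2 at 1.04 above the rest and Ndufa4l2 at 0.08 to the right.

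The last comparisons asked what 17 mM alpha1-oleate did in healthy bladder. In the array labelled 24 h, limma called none of the 87 and 0% of all genes, with 4 and 2503 at an unadjusted p under 0.05. At 7 d it called none of the 87 and 0% of all genes, with 2 and 1096 at an unadjusted p under 0.05. Within experiment 2 the median difference from healthy PBS was -0.07 in the 24 h array and -0.09 in the 7 d array. In the fit the 24 h differences ran from -0.422 for Cox7a2l to 0.748 for Ndufaf4. The 7 d values within experiment 2 ran from -0.5 to 0.69, and the highest was Ndufa4l2 (5.90 against 5.21). Ndufaf1, a complex I assembly factor, had the smallest adjusted p at 7 d, 0.533 by limma, with 6.33 against 6.83.

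**Figure D5:**
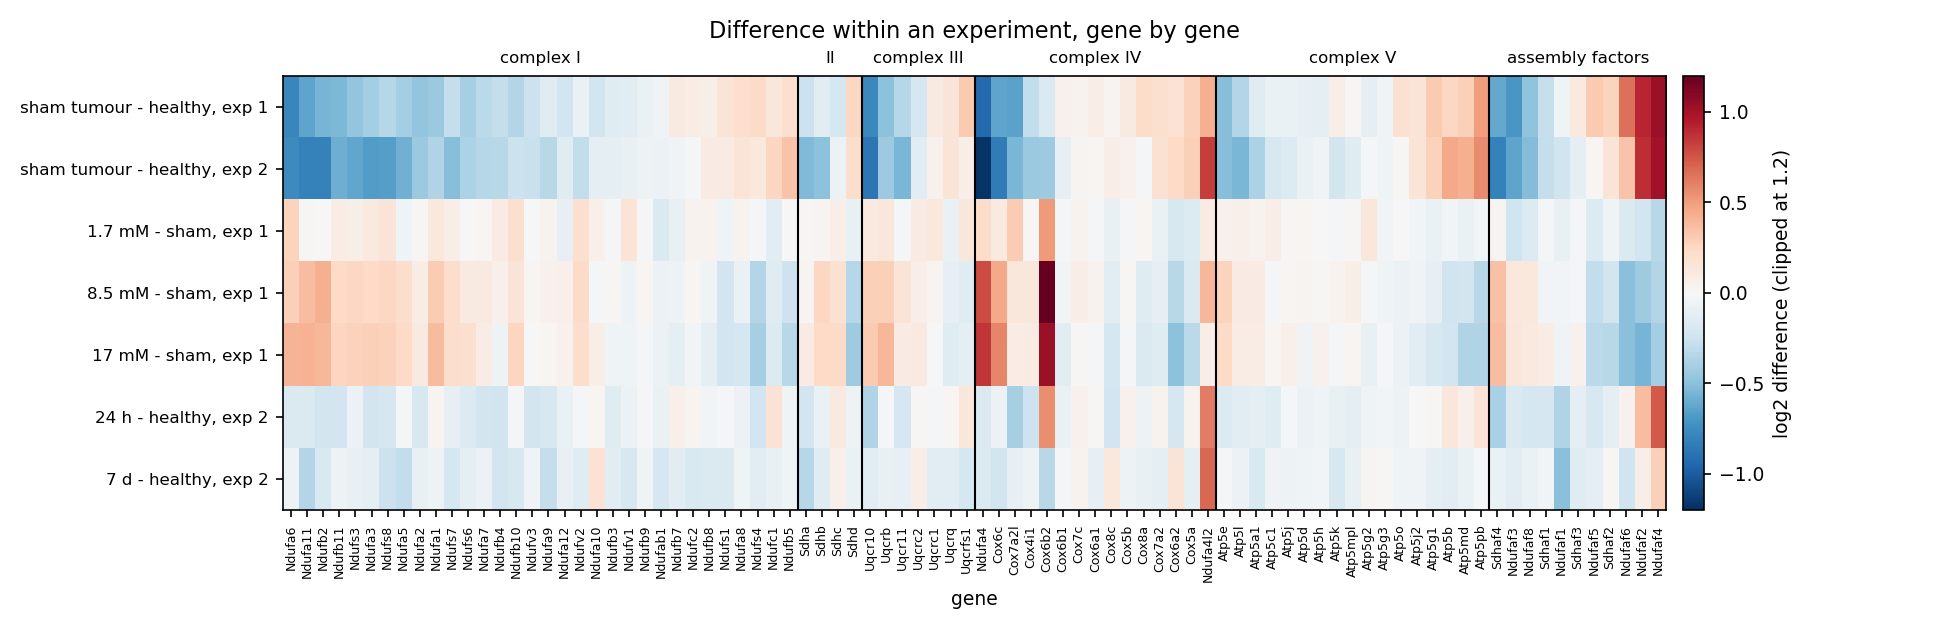
Log2 difference within an experiment (colour, clipped at 1.2) for each subunit and assembly factor above the filter (columns, grouped by complex and ordered by the tumour difference) in 7 comparisons (rows). The tumour rows run from blue to red within each group, and the row of 17 mM minus sham has its deepest red at Ndufa4 (0.86) and Cox6b2 (1.04).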

How the data were processed

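The deposited values are log2 intensities that the authors made with RMA, per the submitters' processing notes, which also name Transcriptome Analysis Console 4.0.1.36; a genome build for the array is not given in the sources used here. Of 45077 probe sets, 28898 named 1 gene, 551 several and 15588 none. All 9 arrays were fitted in 1 limma model (3.58.1, R 4.3.3) of 7 group means with the experiment as a block, leaving 1 residual degree of freedom and 2.23 prior degrees of freedom, with Benjamini-Hochberg adjustment over 11969 genes and calls at an adjusted p under 0.05. The block was used because the experiments were normalized apart: sorted values deviated by 0.022 within an experiment and differed by 0.329 between them. Same-numbered deviations of the PBS arrays correlated at 0.647, over only 2 shared groups. Precision is set by how few arrays there are.

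The gene set and lists were chosen with earlier results of these data known. Named genes were the isoform families, complex II, and the largest rises and falls called in each complex; of the other lists, the largest called. Promoter motifs were first counted in 250 bases before the start; the 300-base window was added after those counts were seen, since it includes bases after the start.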

Additional observations from a re-analysis of the deposited data

Results flagged for a closer look

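Cox7b2, a testis-type isoform of a complex IV subunit, was below the expression filter and in no count of the report. It read 2.72 and 2.77 in healthy PBS and 3.89 and 3.66 in sham-treated tumour, so that the lowest tumour array lay 0.89 above the highest healthy array. In the fit without the filter the difference was 1.03 (SE 0.113, limma adjusted p = 0.0104). At 17 mM it read 2.90. These levels are near the bottom of the array's range.

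At 17 mM the Ndufaf4 probe set used differed between tumour and the array labelled healthy, 24 h. The difference in tumour minus that in the 24 h array was -1.15 (SE 0.175, limma adjusted p = 0.0406), the only one of the 87 called, beside 19.1% of all genes. With the healthy 7 d array in its place the Ndufaf4 value was -0.7, and limma called none of the 87, beside 3.2% of all genes. The schedules differed, and the 24 h array shared features with the tumour arrays for a reason that was not tested. The value rests on 1 of 2 probe sets: at 17 mM against sham-treated tumour in experiment 1 the probe set used differed by -0.41 and the other by 0.37.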

How the results depend on the processing

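Without the replicate block, the count for tumour against healthy PBS became 0 (28 with it), beside 26.5% of all genes. It became 0 for 17 mM (2 with it), beside 10.2%, and 0 for 8.5 mM (1 with it), beside 7.9%. Leave-one-out fits of the PBS arrays had no residual degrees of freedom with the block and were run without it, giving 0 to 2, 0 to 0 and 0 to 1; a group left with 1 array was assumed to vary like the others. The value of 2 came without the sham-treated tumour array of experiment 2, and in that fit Atp5l differed by 0.005 in tumour, the 1 reversal. As a call, a difference of at least 2-fold left 2 in tumour and 1 at 17 mM, beside 29.4% and 18.3% of all genes. The healthy 7 d control left 10, beside 44.3% of all genes. For 17 mM, quantile normalization of all arrays together gave 5 (beside 36.8% of all genes) and leaving out the lowest 50% gave 4 (35.1%). The mean of probe sets gave 4 (25.7%) and a variance trend 5 (29.7%). For 8.5 mM each of these fits gave 2, beside 27.4%, 23%, 16.3% and 19.4% of all genes in the same order. Quantile normalization gave 2 for 17 mM against healthy PBS, beside 18.4% of all genes. The tumour count was 27 to 39 in the other fits with the block, beside 40.9% to 65.7% of all genes. Cox4i1, Ndufaf6 and Ndufs8 lost their calls without the filter. Ndufaf6 also lost its call with a variance trend and Ndufa11 with the mean of probe sets. The cause of these changes was not tested. Whether the numbers pair animals is not known, and signal near background limits the low isoforms.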
